A study of Homo sapiens with 6 samples.

Results

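The receptor tyrosine kinases MET, MST1R, AXL, TYRO3, DDR1 and DDR2 were examined together with HGF, GAS6, SPINT1 and SPINT2, which supply or restrain their ligands. These 10 genes were chosen by name as the MET family, the TAM family with its ligand GAS6, the collagen receptors and the inhibitors of HGF activation, and all 10 are among the 58676 genes of the expression table. Bulk RNA sequencing compared DCIS.COM cells carrying a PLKO.1 non-silencing control vector (NS control, 3 samples) with DCIS.COM cells carrying a PLKO.1 BCL9 shRNA vector (BCL9 KD, 3 samples), to find the expression changes that follow loss of BCL9. DCIS.COM is a basal-like human breast cell line used as a model of ductal carcinoma in situ. Both groups were transduced with lentiviral vectors and grew in DMEM/F12 with horse serum and antibiotic. Each sample was a flask of its own. The contrast rests on a single shRNA in a single line, and no second hairpin enters it.

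MET, also called the HGF receptor, drives scattering, growth and invasion of epithelial cells, and its relative MST1R (RON) binds the related ligand MSP. HGF is secreted as an inactive chain that trypsin-like proteases must cut, and SPINT1 (HAI-1) and SPINT2 (HAI-2) are Kunitz-type inhibitors of those proteases. AXL, TYRO3 and MERTK form the TAM family, which is activated by vitamin K-dependent GAS6 and protein S, whereas DDR1 and DDR2 are activated by collagen itself. BCL9 is a transcriptional coactivator best known as a partner of beta-catenin.

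Reads on genes ranged from 15222452 to 26949026 per sample. BCL9 was 6.25, 6.24 and 5.34 FPKM in NS control replicates 1 to 3 and 2.86, 2.78 and 2.59 FPKM in BCL9 KD replicates 1 to 3. BCL9 fell by 0.99 on the log2 scale (SE 0.0933, limma adjusted p = 0.00773), and this call was lost without NS control replicate 2 (0.0636), BCL9 KD replicate 2 (0.0589) or BCL9 KD replicate 3 (0.0700). FPKM is the number of reads scaled to gene length and to the reads counted in the sample. Levels of different genes are therefore compared only under the gene lengths deposited with the values, which need not be those of the transcripts expressed. All 6 basal epithelial markers were expressed, KRT5 between 379 and 436 FPKM, and 0 of the 6 were called by limma (median log2 fold change 0.02), with TP63 higher and EGFR lower in every BCL9 KD sample. Of the 5 pan-epithelial markers 0 were called (median -0.16), but CDH1, KRT8 and KRT18 were lower in every BCL9 KD sample, as were 16.4% of all genes tested, and the list summed to 578 to 689 FPKM in NS control and 531 to 561 FPKM in BCL9 KD. The 5 hormone-responsive luminal markers summed to between 10.9 and 13.1 FPKM in all samples. The fibroblast markers DCN, LUM, COL1A2 and COL3A1 were at or near 0, as were the blood cell markers PTPRC, CD3E and MS4A1. Summed over the 8 fibroblast markers, the level was 1.13 to 1.95 FPKM in NS control and 2.03 to 2.18 FPKM in BCL9 KD, most of it from COL1A1 and from FAP, which was 0.428, 0.805 and 1.22 FPKM in NS control and 1.28, 1.12 and 1.30 FPKM in BCL9 KD. The endothelial list summed to 1.84 to 2.41 FPKM and 3.16 to 3.97 FPKM, and of its genes PECAM1 rose (0.61, limma adjusted p = 0.0477) while CDH5, VWF and TEK stayed under 0.1 FPKM. The 6 immune markers summed to 0.371 to 0.629 FPKM and 0.911 to 1.49 FPKM, most of it from CD14, which was 0.560, 0.288 and 0.418 FPKM in NS control and 1.38, 0.964 and 0.778 FPKM in BCL9 KD (log2 fold change 0.73, limma adjusted p = 0.0811). The pan-epithelial, fibroblast, endothelial and immune sums lay apart between the groups, while the basal and luminal sums overlapped. The part of these marker levels in the results was not tested. Fewer cells of a kind and less RNA per cell cannot be told apart in bulk samples.

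AXL, which binds GAS6 and is known for its part in invasion and drug resistance of carcinoma cells, was the only receptor whose change passed the test. It lies at chr19:41219203-41261766 on the plus strand of hg38. In NS control replicates 1 to 3 its level was 61.0, 55.6 and 48.6 FPKM. In BCL9 KD replicates 1 to 3 it was 41.4, 36.5 and 35.2 FPKM. Every BCL9 KD sample lay below every NS control sample. AXL fell by 0.54 on the log2 scale (SE 0.105, 95% confidence interval -0.79 to -0.29, limma adjusted p = 0.0387), and its mean FPKM changed by -31.5%. The call was lost without NS control replicate 1 (limma adjusted p = 0.0519), NS control replicate 2 (0.152), BCL9 KD replicate 2 (0.179) or BCL9 KD replicate 3 (0.180), and also without the low-value filter (0.102) or the variance trend (0.0633). With the fits that add a replicate block, it was lost in 8 of 19 alternatives, and the log2 fold change stayed between -0.62 and -0.45 in all 19. The transcripts of AXL hold 57.6% GC. Over 3888 genes of at least 55% GC, the median log2 deviation was 0.101 in NS control replicate 1, against -0.0468 to 0.0217 in the other samples. With a GC correction AXL was at -0.47, or -0.45 by a robust local line (limma adjusted p = 0.0204 for each). What part GC content had in the spread of AXL was not tested. CTD-2195B23.3, an annotated gene on the opposite strand, shares 626 bases with AXL and held 7 to 15 reads per sample, against 2846 to 7141 reads on AXL.

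Of the 8 receptors and regulators with enough signal to test, 1 was called lower and 0 higher. Over all 13745 genes tested, 2.91% were called lower and 2.96% higher, 5.87% in all, so 1 of 8 is a description and no excess is read from it. At an unadjusted p under 0.05, 3775 of all genes passed. Values of the groups did not overlap for 5 of the 8, of which 3 (AXL, MST1R and TYRO3) were below and 2 (SPINT1 and SPINT2) above NS control. Among all genes tested the groups did not overlap in 34.2%, with 16.4% below and 17.8% above. The median log2 fold change of the 8 was -0.14, beside 0.04 over all genes tested. The plot of levels by sample shows the spread behind each of these values.

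**Figure D1:**
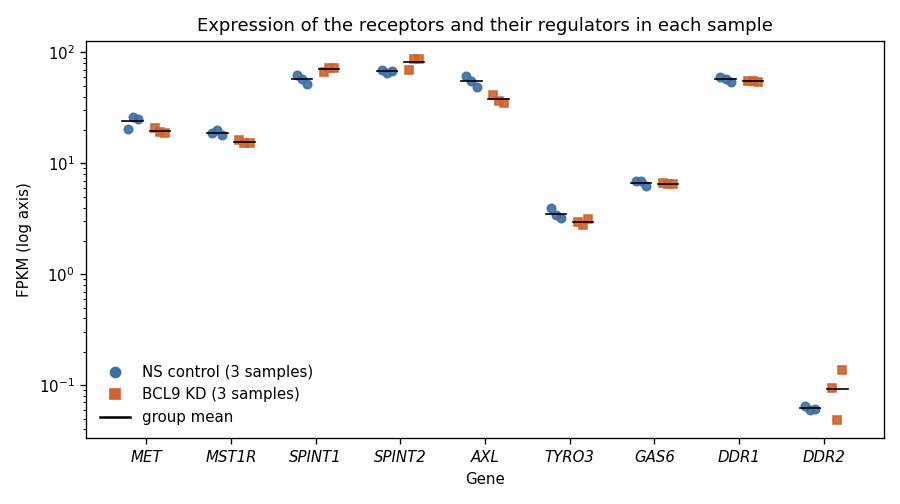
FPKM on a log axis for 9 of the 10 genes, with NS control samples as circles, BCL9 KD samples as squares, replicates 1 to 3 from left to right and lines at the group means. AXL, MST1R and TYRO3 lie lower in every BCL9 KD sample and SPINT1 and SPINT2 lie higher, and HGF is left out because it was listed at 0 in some samples.

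**Figure D2:**
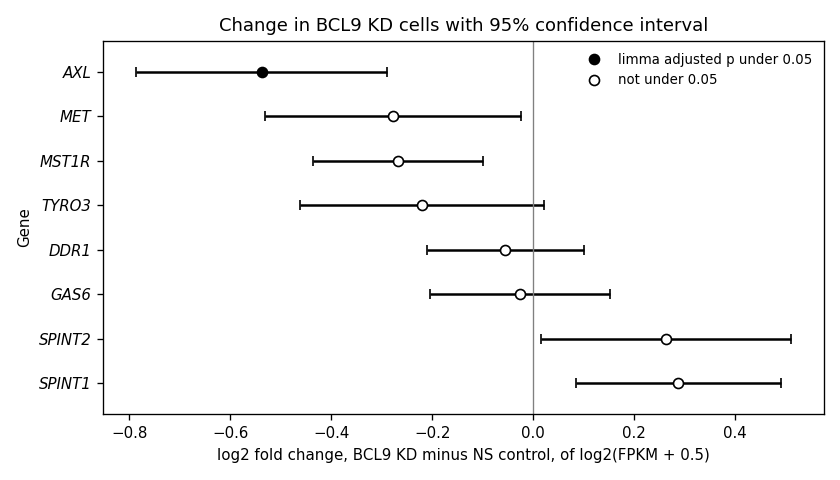
Log2 fold change of each tested gene, BCL9 KD minus NS control, with its 95% confidence interval. The filled point marks AXL, the gene with a limma adjusted p under 0.05, and the intervals of TYRO3, DDR1 and GAS6 include 0.

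The ligand HGF was near the limit of detection, so the axis could be followed mainly at its receptors and inhibitors. HGF (chr7:81699006-81770438, minus strand) held 0, 2 and 0 reads in NS control and 5, 4 and 2 reads in BCL9 KD. In a library at 0 reads, 3 reads would correspond to 0.0148 FPKM in NS control replicate 1 and 0.0222 FPKM in NS control replicate 3. The ratio of read rates was 5.31 with an exact interval of 1.16 to 49.3, which covers counting error only, and HGF was not tested among all genes. All 6 values were too low for a statement on the ligand in these cells beyond these counts.

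MET (chr7:116672390-116798386, plus strand), the receptor for HGF, was 20.6, 26.4 and 25.2 FPKM in NS control. In BCL9 KD it was 21.1, 19.1 and 18.9 FPKM. NS control replicate 1 was as low as the BCL9 KD samples, so the groups overlapped. The log2 fold change was -0.28 (SE 0.107, 95% confidence interval -0.53 to -0.02) and missed the threshold (limma adjusted p = 0.152). The two-sided exact permutation p was 0.2, where 3 against 3 samples cannot go below 0.1. NS control replicate 1 also stood apart in genes of low GC content: over 4962 genes under 45% GC, its median log2 deviation was -0.312, against values between -0.0217 and 0.103 in the other samples. The transcripts of MET hold 44.4% GC, and with a GC correction its log2 fold change was -0.30 (limma adjusted p = 0.0696), or -0.29 (0.0764) by a robust local line. Without NS control replicate 1, MET was called at -0.38 (limma adjusted p = 0.0464).

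MST1R (chr3:49887002-49903873, minus strand), the MSP receptor, was expressed at a level near that of MET. It was 18.8, 20.0 and 17.9 FPKM in NS control and 16.2, 15.2 and 15.4 FPKM in BCL9 KD. All BCL9 KD values were below the NS control values. The log2 fold change of -0.27 (SE 0.0712, 95% confidence interval -0.44 to -0.10) missed the threshold (limma adjusted p = 0.0699), and it passed only when NS control replicate 3 was left out (0.0481). The ratio of MET to MST1R within a sample was 1.10, 1.32 and 1.41 in NS control and 1.30, 1.25 and 1.23 in BCL9 KD. Its log2 difference was -0.01 (exact permutation p = 0.9, adjusted over 4 ratios 1), within the spread of NS control.

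SPINT1 and SPINT2, the inhibitors of HGF-activating proteases, were the most abundant of the 10 genes by mean FPKM in both groups. SPINT1 (chr15:40844018-40858207, plus strand) was 62.9, 57.8 and 52.5 FPKM in NS control and 66.5, 72.8 and 71.8 FPKM in BCL9 KD. SPINT2 (chr19:38244035-38292614, plus strand) was 68.9, 65.3 and 68.2 FPKM in NS control and 69.2, 87.5 and 88.0 FPKM in BCL9 KD. For both genes every BCL9 KD value was above every NS control value, although BCL9 KD replicate 1 lay close to the control range for SPINT2. The log2 fold change of SPINT1 was 0.29 (SE 0.0857, 95% confidence interval 0.08 to 0.49, limma adjusted p = 0.0910). That of SPINT2 was 0.26 (SE 0.105, 95% confidence interval 0.02 to 0.51, limma adjusted p = 0.162).

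Neither inhibitor passed the threshold in the comparison. SPINT2 was called only without BCL9 KD replicate 1 (limma adjusted p = 0.0380), and SPINT1 only with a GC correction (0.0135 and 0.0107 by its 2 forms). The ratio of SPINT1 to SPINT2 was 0.913, 0.885 and 0.769 in NS control and 0.962, 0.832 and 0.817 in BCL9 KD, with a log2 difference of 0.02 (exact permutation p = 1). SPINT1-AS1, which runs antisense to SPINT1 and shares 370 bases of its span, was 1.64, 3.95 and 3.55 FPKM in NS control and 3.29, 3.86 and 4.23 FPKM in BCL9 KD. Reads of an antisense partner cannot be told apart where strand was not used in counting, which the sources used here do not give.

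TYRO3 (chr15:41557675-41583586, plus strand), a second TAM receptor, was far less abundant than AXL. Its level was 3.94, 3.43 and 3.22 FPKM in NS control and 2.94, 2.76 and 3.17 FPKM in BCL9 KD. The groups did not overlap, but NS control replicate 3 and BCL9 KD replicate 3 nearly met. The log2 fold change was -0.22 (SE 0.102, 95% confidence interval -0.46 to 0.02, limma adjusted p = 0.217), and it was -0.13 under a GC correction by a robust local line. TYRO3P, a near copy of TYRO3, held 32 reads over the NS control samples and 15 over the BCL9 KD samples, and reads shared between such copies are uncertain.

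By FPKM, and so under the deposited gene lengths, AXL supplied nearly all TAM receptor message. Its share of the summed FPKM of AXL, TYRO3 and MERTK was 93.6%, 93.9% and 93.5% in NS control and 93.2%, 92.8% and 91.6% in BCL9 KD. The sum itself was 65.2, 59.2 and 52.0 FPKM in NS control and 44.4, 39.3 and 38.5 FPKM in BCL9 KD. MERTK, the third member of the family, held 23, 15 and 10 reads in NS control and 6, 9 and 4 reads in BCL9 KD, a ratio of read rates of 0.382 (exact interval 0.212 to 0.662, counting error only). The ratio of AXL to TYRO3 was 15.5, 16.2 and 15.1 in NS control and 14.1, 13.2 and 11.1 in BCL9 KD. Its log2 difference was -0.29 (exact permutation p = 0.1, the smallest that 3 against 3 allows, adjusted over 4 ratios 0.4), and it was -0.19 without BCL9 KD replicate 3.

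GAS6 (chr13:113820549-113864067, minus strand), the shared TAM ligand, was present at a modest level. It was 6.90, 6.97 and 6.25 FPKM in NS control and 6.68, 6.50 and 6.54 FPKM in BCL9 KD. The BCL9 KD values lay inside the NS control range. The log2 fold change was -0.03 (SE 0.0753, 95% confidence interval -0.20 to 0.15, limma adjusted p = 0.848), and its sign turned under the GC corrections. GAS6-AS1, an antisense gene, held 16 to 35 reads per sample against 571 to 1052 reads on GAS6.

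The collagen receptors differed widely in level. DDR1 (chr6:30876421-30900156, plus strand), the epithelial collagen receptor, was 60.2, 57.5 and 54.4 FPKM in NS control and 55.7, 55.4 and 54.4 FPKM in BCL9 KD. These values overlapped, and the log2 fold change of -0.05 (SE 0.0654, 95% confidence interval -0.21 to 0.10, limma adjusted p = 0.607) turned sign under a GC correction by a robust local line. DDR2 (chr1:162631373-162787400, plus strand), which is typical of mesenchymal cells, held 16, 13 and 10 reads in NS control and 18, 14 and 23 reads in BCL9 KD and was not tested among all genes. Its ratio of read rates was 1.36 (exact interval 0.886 to 2.11, counting error only), so no difference was detectable at this depth. The log2 difference of the ratio of DDR1 to DDR2 was -0.52 (exact permutation p = 0.4, adjusted over 4 ratios 0.8). It was -0.93 without BCL9 KD replicate 2, -0.17 without BCL9 KD replicate 3 and -0.13 with 0.5 FPKM added to both genes, so its size is not settled by these samples.

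Ranked by mean FPKM, the order in both groups was SPINT2, SPINT1, DDR1, AXL, MET, MST1R, GAS6, TYRO3, DDR2 and HGF. In NS control, the ranges of SPINT1 and DDR1 overlapped, as did those of DDR1 and AXL, so the order of these neighbours is not settled by their spread. In BCL9 KD only the ranges of SPINT2 and SPINT1 overlapped among neighbours. Mean DDR1 was 1.04 times mean AXL in NS control and 1.46 times in BCL9 KD. The order rests on the deposited gene lengths, which were 9122 bases for DDR1 and 5154 bases for AXL.

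The promoter sequences of the 3 genes with the smallest limma adjusted p among the 10 are shown for context. They are the 250 bases before a RefSeq transcript start (GRCh38.p14), read 5′ to 3′ along the gene, and 9 of the 10 genes matched, with 21 starts. Each of these 3 had a window with the GC box (GGGCGG on either strand, overlapping matches counted), which capitals mark. The windows are chr19:41218973-41219222 (plus strand) for AXL, chr3:49903874-49904123 (minus strand) for MST1R and chr15:40843798-40844047 (plus strand) for SPINT1.
AXL: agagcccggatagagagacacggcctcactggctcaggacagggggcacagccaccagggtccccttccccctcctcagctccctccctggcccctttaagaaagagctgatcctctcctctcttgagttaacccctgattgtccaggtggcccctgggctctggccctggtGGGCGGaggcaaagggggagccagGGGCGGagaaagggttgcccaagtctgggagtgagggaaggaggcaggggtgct
MST1R: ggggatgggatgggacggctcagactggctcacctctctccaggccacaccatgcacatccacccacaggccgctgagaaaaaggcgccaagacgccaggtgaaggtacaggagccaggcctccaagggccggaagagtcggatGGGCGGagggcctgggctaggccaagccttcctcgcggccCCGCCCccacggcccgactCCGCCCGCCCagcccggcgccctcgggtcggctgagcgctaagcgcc
SPINT1: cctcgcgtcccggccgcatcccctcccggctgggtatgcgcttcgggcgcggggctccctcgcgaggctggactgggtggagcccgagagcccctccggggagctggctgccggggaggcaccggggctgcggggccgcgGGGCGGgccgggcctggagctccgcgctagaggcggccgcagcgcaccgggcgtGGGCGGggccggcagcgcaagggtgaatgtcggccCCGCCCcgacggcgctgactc

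AXL held 2 GC boxes in this window, MST1R 4 and SPINT1 3, while a second start of AXL and of SPINT1 held 0. Of the 21 windows of the 9 genes, 10 held the GC box, beside 42.6% of 35114 promoters of the same length, so it does not set these genes apart. The other motifs searched were STAT (TTCNNNGAA, in 6.57% of promoters), TCF/LEF (CTTTGA, 11.2%) and AP-1 (TGANTCA, 6.57%), all on both strands. They matched 1, 0 and 2 of the 21 windows, and none in the windows of AXL, MST1R or SPINT1. All 4 motifs were chosen after the expression values were seen, and the GC box was added only after the other 3 had given no match in those windows. A match is a description of letters and not a bound site.

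Among 87 further genes of these pathways, 65 could be tested, and 1 was called higher and 5 lower, where 2.96% of all genes tested were called higher and 2.91% lower. The median log2 fold change of the 65 was 0.02 beside 0.04 for all genes. The lists below hold few genes each, and nothing particular to a list is read from its count. The genes that activate HGF and MSP had 0 called of 6 tested (median 0.04). Their largest values were those of PLAUR, the urokinase receptor, at 0.37 (limma adjusted p = 0.0644), and TMPRSS13, a membrane serine protease, at -0.14 (0.443), or -0.08 with a GC correction. Of 15 coreceptors and signal adaptors of MET, 0 were called (median 0.02), with the lipid kinase subunit PIK3CA at 0.45 (0.293) and the phospholipase PLCG1 at -0.19 (0.158), or -0.09 with the GC correction by a robust local line. PIK3CA was at 0.16 without NS control replicate 1, at 0.71 without NS control replicate 3 and at 0.17 with a GC correction, and it was not called in any of these. Of 12 genes of receptor shutdown, 0 were called (median -0.04), with the ubiquitin ligase CBLB at 0.44 (0.0948) and the receptor inhibitor LRIG1 at -0.36 (0.0526). Over the 19 alternatives, LRIG1 was called in 4, PLAUR in 3 and CBLB in 1.

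Receptor shedding held the gene that rose. MMP14, a membrane metalloprotease, was 52.3, 52.8 and 48.7 FPKM in NS control and 66.5, 68.4 and 66.2 FPKM in BCL9 KD. It rose by 0.38 on the log2 scale (SE 0.0638, limma adjusted p = 0.0290). MMP14 was 1 of 12 genes tested in this list, beside 2.96% of all genes called higher. The list's median was 0.27, and its extremes were the sheddase ADAM10 at 0.52 (0.191) and ADAM15 at -0.16 (0.288). The list also holds the metalloprotease inhibitors TIMP1 at 0.41 (0.0530), TIMP2 at 0.30 (0.0566) and TIMP3 at 0.04 (0.781). Its median is therefore not one of proteases alone. ADAM10 was lowest in NS control replicate 1, the sample low in AT-rich genes, at 8.43 FPKM, and so were PIK3CA, PROS1 and NCK1. Without that replicate ADAM10 was at 0.24, PROS1 at 0.32 and NCK1 at 0.33, and with a GC correction they were at 0.35, 0.31 and 0.26. Without NS control replicate 3 they were at 0.73, 0.63 and 0.64, and of these only NCK1 was called (limma adjusted p = 0.0333). ADAM15 was at -0.07 without NS control replicate 1.

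Among TAM partners, 1 of 4 tested genes fell, VKORC1L1, which recycles the vitamin K that carboxylation of GAS6 needs. It was 13.0, 13.5 and 12.4 FPKM in NS control and 10.5, 9.82 and 10.5 FPKM in BCL9 KD (log2 fold change -0.33, limma adjusted p = 0.0466). Protein S, encoded by PROS1, was at 0.50 (0.170) and, being near the low-value filter, at 0.80 with 0.1 FPKM added and at 1.03 with voom on the recovered reads, without a call in either. The list's median was -0.02, and 2.91% of all genes tested were called lower.

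Ligands and partners of the collagen receptors held the other called genes. Type IV collagen, the basement membrane collagen that DDR1 binds, fell in both of its main chains. COL4A1 was 28.1, 32.1 and 30.6 FPKM in NS control and 20.8, 19.5 and 19.7 FPKM in BCL9 KD (log2 fold change -0.59, limma adjusted p = 0.0152). COL4A2 was 68.1, 70.5 and 66.4 FPKM in NS control and 57.1, 55.3 and 52.4 FPKM in BCL9 KD (log2 fold change -0.31, limma adjusted p = 0.0456). These were 2 of 7 collagen genes tested (median 0.06), beside 2.91% of all genes called lower. Of the other type IV chains tested, COL4A5 was at 0.31 (0.190) and COL4A6 at 0.37 (0.102), the highest value of the list. Both were higher in every BCL9 KD sample, as were 17.8% of all genes tested, and neither was called.

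WWC1 (KIBRA), a scaffold protein that binds DDR1, was 16.5, 16.9 and 14.2 FPKM in NS control and 10.2, 10.2 and 10.4 FPKM in BCL9 KD (log2 fold change -0.60, limma adjusted p = 0.0187). MYH9, the heavy chain of non-muscle myosin IIA, was 441, 413 and 357 FPKM in NS control and 292, 253 and 244 FPKM in BCL9 KD (log2 fold change -0.62, limma adjusted p = 0.0322). Both fell, as 2 of 9 tested DDR partners (median -0.25) beside the same 2.91% of all genes, and the adaptor NCK1 was at 0.49 (0.104). All 6 called pathway genes lost their call without NS control replicate 2, without BCL9 KD replicate 2 and without BCL9 KD replicate 3, with limma adjusted p between 0.0832 and 0.208, while VKORC1L1 and COL4A2 also lost it without NS control replicate 1 (0.0549 and 0.0520) and without BCL9 KD replicate 1 (0.0710 and 0.0512).

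**Figure D3:**
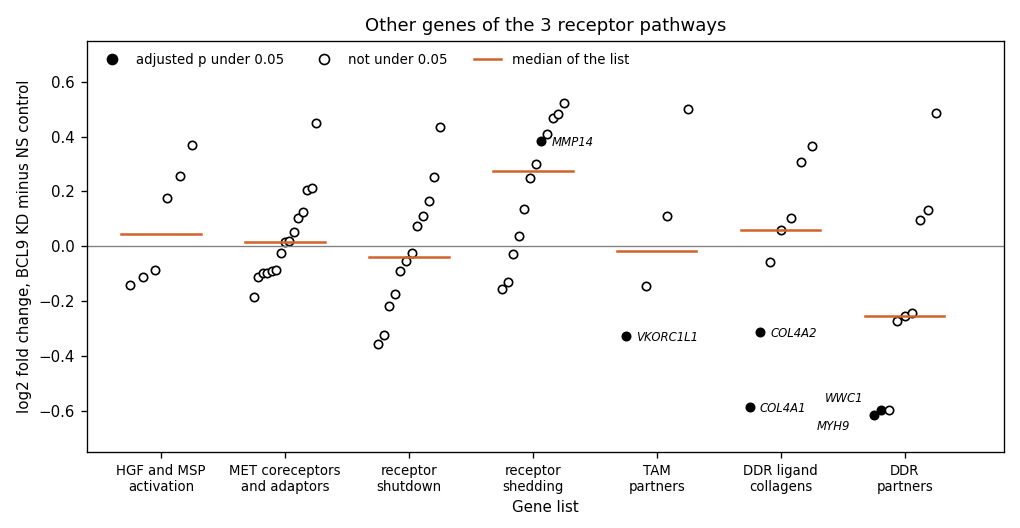
Log2 fold change, BCL9 KD minus NS control, of every tested gene in the 7 pathway lists, with a line at each list's median and filled points for a limma adjusted p under 0.05. MMP14 is the filled point above 0 and COL4A1, COL4A2, WWC1, MYH9 and VKORC1L1 are those below.

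The plot of fold changes under the alternatives compares the 8 tested receptors and regulators over the comparison and 19 other settings. AXL passed the threshold in 11 of these settings, SPINT1 in 2, and MET, MST1R and SPINT2 in 1 each. TYRO3, GAS6 and DDR1 passed in 0.

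**Figure D4:**
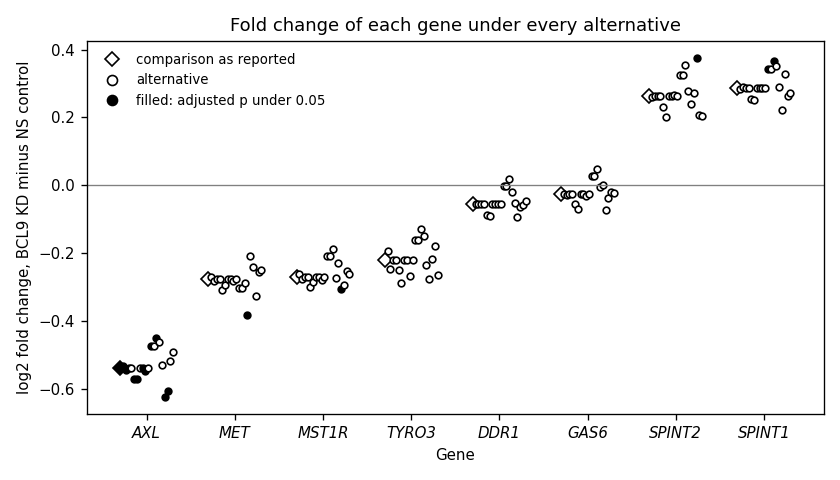
Log2 fold change, BCL9 KD minus NS control, of each tested gene in the comparison (diamond) and in 19 alternatives (circles), filled where the limma adjusted p was under 0.05. AXL lies between -0.62 and -0.45, and GAS6 and DDR1 scatter around 0.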

How the data were processed

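RNA was sequenced from 3 NS control and 3 BCL9 KD samples, and each replicate had its own flask. Per the labels, libraries were made with the NEB Next Ultra RNA kit, and the submitters' processing notes name STAR, HTSeq 0.6.1, CASAVA and hg38. The authors counted reads per gene and deposited FPKM, which divides the count by gene length and by the reads counted. The gene length in bases was deposited in the same table as another column and was used to recover reads. The study's methods also name Tophat for parsing alignments, Cufflink without its step, and DESeq2 for the authors' own test on counts. For DESeq2 they state fewer biological replicates per condition than the 3 samples per group used here, and they name edgeR for comparisons without replicates. Whether counting used strand is not given in the sources used here.

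FPKM times gene length and sample depth, with the depth read from the steps between low values, came out as whole reads within a tolerance of 0.1 for 100% of values. Depth ranged from 15222452 to 26949026 reads on genes. Intervals and floors of 3 reads cover counting error only, at 95%, since the libraries are not stated to carry molecular identifiers and PCR copies are then counted as molecules.

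The comparison was BCL9 KD minus NS control with limma 3.58.1 in R 4.3.3, two-sided, on log2(FPKM + 0.5) with a mean-variance trend. It covered the 13745 genes whose mean FPKM reached 0.5. P-values were adjusted with Benjamini-Hochberg over these genes, and a gene was called at an adjusted p under 0.05. Fold changes are on this scale and understate the change of low genes. Ratios of paired genes were compared by exact permutation. Figures were drawn with matplotlib 3.10.9, and scipy 1.17.1, pandas 2.3.3 and numpy 2.4.6 were used under Python 3.11. The fit was tested on simulated data.

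The genes named are all 10 members, BCL9 and, in each pathway list, every gene called and the tested genes with the largest change in each direction. VKORC1L1, COL4A1 and MYH9 are both called and the lowest of their lists. MERTK, COL4A5, TIMP1, TIMP2, TIMP3, PECAM1, CD14 and the other marker genes are named by value because they bear on a result and were chosen after values were seen. The members and lists were chosen with earlier results of these data known. The alternatives were other added values, filters, scalings, variance models, voom on the recovered reads, a replicate block and leaving out each sample. The GC corrections (loess with a span of 0.3 on transcript GC content from the GRCh37 GENCODE transcripts) were chosen after seeing the data, and so were the promoter motifs.

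No batch is stated for the replicate numbers, so no pairing was used in the main comparison. Gene positions are those in the deposited table, and 99.85% of 33533 genes matched by symbol overlapped their RefSeq GRCh38.p14 position. Replicates of a group had Pearson correlations of log2 values across genes between 0.964 and 0.987, so none was treated as a duplicate.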

Additional observations from a re-analysis of the deposited data

How the results depend on the processing

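AXL kept its direction in all 19 alternatives (log2 fold change between -0.62 and -0.45) and was called in 11 of them. MET, MST1R, TYRO3, SPINT1 and SPINT2 also kept their direction in all 19. GAS6 turned to 0.026 with the GC correction and with the GC correction plus replicate block, and to 0.047 with a GC correction by a robust local line. It ranged from -0.072 to 0.0014 with each sample left out, turning without NS control replicate 2. DDR1 turned to 0.020 with the robust local line, and neither gene was called in any of these. The robust local line was fitted first, and a local quadratic was made the GC correction after its results were seen. SPINT1 was called with both of these corrections, in limma with adjusted p of 0.0135 and 0.0107, but not with the GC correction plus replicate block (adjusted p = 0.0562). The 17 pathway genes named as called or as the largest change of their list kept their direction in every alternative that could be run. PROS1 could not be run with a mean FPKM of at least 1, because it falls under it. MMP14, VKORC1L1, COL4A2 and MYH9 were not called without a filter or without the trend (limma adjusted p between 0.0537 and 0.106), MMP14 and COL4A2 not with median-of-ratios scaling (0.0505 and 0.0516), and COL4A2 not with the GC corrections (0.0607 and 0.0880).

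The replicate block left 0 genes called among all tested by limma, 0 higher and 0 lower, with 3235 at an unadjusted p under 0.05. Under the replicate block BCL9 was at -0.99 (adjusted p = 0.0656) and AXL at -0.54 (adjusted p = 0.0788; 0.0523 with the GC correction added), with 0 members called lower and 0 pathway genes called in either direction. The correlation across genes between deviations of same-numbered samples was -0.147, -0.0884 and -0.00287, and its mean was 0.0387 for samples with different numbers. Deviations were taken from each group's own mean, which ties these values to one another, so the second is no independent reference. Whether samples of the same number shared a batch was not tested. With the GC correction and replicate block together, 0 members were called lower, 0 pathway genes were called higher and 0 lower, and 117 genes of all tested were called higher and 79 lower, so 59.7% of calls were higher, against 50.4% in the main comparison.

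Without a filter, 0 members were called lower, 0 pathway genes higher and 2 lower, and 70 genes of all tested were called higher and 72 lower. Here 30731 genes shared the adjustment. Without the trend, 0 members were called lower, 0 pathway genes higher and 2 lower, and 182 genes were called higher and 150 lower. The GC correction called 1 member and 5 pathway genes higher, with 911 genes higher and 863 lower among all tested, and the robust local line called 1 member, 6 pathway genes and 1005 genes higher, with 764 lower. Voom called 5 pathway genes higher, and 714 genes higher and 689 lower. Pathway genes called higher numbered 2 with a mean FPKM of at least 1, 0 with median-of-ratios scaling and 2 with quantile normalization, which also called 613 genes lower, so that 43.4% of calls were higher. The cause was not tested for these changes.

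With each sample left out in turn, members called higher ranged from 0 to 1 and lower from 0 to 2, pathway genes called higher from 0 to 2 and lower from 0 to 8, and genes called higher among all tested from 2 to 923 and lower from 3 to 806. All tested genes called fell to 12 without NS control replicate 2, to 13 without BCL9 KD replicate 2 and to 5 without BCL9 KD replicate 3, against 807 with all samples, and were 1729 without NS control replicate 3. BCL9 ranged from -1.06 to -0.95. With samples left out, the difference between groups in the log2 ratio for MET to MST1R ranged from -0.11 to 0.07, AXL to TYRO3 from -0.36 to -0.19, SPINT1 to SPINT2 from -0.05 to 0.07 and DDR1 to DDR2 from -0.93 to -0.17. Reads without division by length give the same differences, because length cancels. The reported ratios add nothing to FPKM, so an alternative without an added value was not run apart. With few reads on HGF and DDR2, their counting intervals are wide.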
